A study of Mus musculus with 9 samples.

Results

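Transcript levels of p53 and 9 of its target genes were examined in naive mouse embryonic stem cells that were left untreated, given a control siRNA or given siRNA against Stag3. The 10 genes were chosen by name, as textbook members of the p53 response: Trp53, Cdkn1a, Mdm2, Ccng1, Trp53inp1, Bbc3, Btg2, Phlda3, Bax and Zmat3. All 10 were found in the deposited table of 16636 genes, and all 10 were among the 14246 genes that passed the filter on low counts. The cells were wildtype E14 embryonic stem cells, a mouse line, grown on fibronectin with a MEK inhibitor (PD0325901), a GSK3 inhibitor (CHIR99021) and LIF. Untreated cells received no siRNA. siLuc cells received control siRNA to luciferase and siStag3 cells received siRNA to Stag3, in both cases 50 pmol at seeding and again on the next day, with RNAiMax Lipofectamine, and RNA was taken after 48 hours. Each group has 3 libraries, so 9 in all. The labels name 1 cell line for all 9.

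p53, the product of Trp53, is a transcription factor that is held at low activity by the ubiquitin ligase MDM2 and is stabilised when DNA is damaged. Its targets stop the cell cycle (Cdkn1a, which encodes the CDK inhibitor p21, and the antiproliferative Btg2), promote cell death (the BH3-only gene Bbc3, also called Puma, the pore-forming Bax and the cofactor Trp53inp1), and restrain p53 or growth signalling (Mdm2, the cyclin Ccng1 and the AKT inhibitor Phlda3). Zmat3 encodes an RNA-binding protein induced by p53. Much of p53 control acts on the protein, which RNA levels do not report. A DNA damage type response would show at the RNA level as a joint rise of the targets, with Trp53 mRNA itself often little altered.

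The promoters of the members were searched for letters that resemble the p53 consensus. Sequences were taken from RefSeq on the GRCm38.p6 build, which held windows for 8 of the 10 members (11 windows, since Cdkn1a has 2 and Bbc3 3), 250 bases before to 50 bases after each gene start. The 250 upstream bases were searched, on both strands, for a pair of p53 consensus decamers 0 to 13 bases apart, with at most 3 mismatches over the pair and none at the central C and G of either decamer. Such a pair was found in 6 of the 11 windows, which belong to 5 of the 8 members, and in 12.96% of 32851 windows of all genes. A pair with no spacer was found in 4 of the 11 windows, of 4 members, and in 1.138% of all windows. For each of the 5 members 1 stretch is given 5′ to 3′ on the strand of the gene, with the decamers in capitals. They are printed because the counts above rest on such matches. Another Bbc3 window also held a pair, with a spacer of 2 bases and 3 mismatches, which is counted but not printed. A match is a description of the letters and not a binding site, and where a window held several pairs the one with the shortest spacer is printed, a choice made after the pairs were seen.
Trp53, chr11:69580269-69580318, plus strand: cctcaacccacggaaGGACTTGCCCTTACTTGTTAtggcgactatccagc
Cdkn1a, chr17:29090913-29090962, plus strand: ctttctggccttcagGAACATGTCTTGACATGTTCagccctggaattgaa
Ccng1, chr11:40755447-40755496, minus strand: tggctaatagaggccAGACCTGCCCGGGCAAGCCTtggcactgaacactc
Bbc3, chr7:16309471-16309520, plus strand: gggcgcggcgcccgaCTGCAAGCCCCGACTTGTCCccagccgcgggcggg
Bax, chr7:45467064-45467114, minus strand: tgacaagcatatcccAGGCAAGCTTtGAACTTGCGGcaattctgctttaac
The Cdkn1a and Ccng1 pairs each held 1 mismatch, that of Bax 2, and those of Trp53 and Bbc3 3. The Cdkn1a pair ended 32 bases before the more upstream of its 2 listed starts, and the window of the other start held none. The windows of Mdm2, Btg2 and Phlda3 held no pair, which says only that these letters are not in those upstream bases.

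Total counts ran from 29332436 to 44527534 per library. The column names give each library a set (1 or 3) and an experiment number (1, 3 or 5), which the labels do not explain, and each group has 2 libraries of Set 1 and 1 of Set 3. The set entered the fit as a covariate, and the common biological coefficient of variation was 7.62% with it and 14.6% without it. In Set 3 the siLuc library is of experiment 1 and the untreated and siStag3 libraries are of experiment 5, so there the experiment and the siLuc treatment cannot be told apart. The targeted gene matched its labels: Stag3 was at 13.5 to 15.6 CPM (the count scaled to a common library size with TMM factors) in siStag3 and at 22.5 to 28.6 in the other 6 libraries. All 8 embryonic stem cell markers examined were expressed, with summed levels of 4728 to 5228 CPM. Of 8 fibroblast markers, 7 stayed at or under 2.72 CPM, and the other, Fbln1, was at 68.0 to 123 CPM. Of 8 primitive endoderm markers, 7 stayed at or under 2.00 CPM and the other, Lamb1, at 11.6 to 18.8. The series calls the 3 libraries of a group biological replicates and does not say whether they are separate cultures, so p-values measure the spread between these libraries. In RNA from whole cultures, fewer cells that express a gene and less of its RNA per cell cannot be told apart.

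In untreated cells Trp53 was at 384 ± 23.2 CPM, Cdkn1a at 199 ± 10.1, Mdm2 at 176 ± 21.7, and Bbc3, the lowest member, at 10.8 ± 0.296 (SD, n = 3). The smallest count of any member in any library was 287, for Bbc3 in siLuc. Divided by the median length of the GENCODE M21 transcripts of each gene, untreated levels formed a high group of 5 genes at 170 to 246 CPM per kilobase (Bax, Trp53, Mdm2, Ccng1 and Cdkn1a). Trp53inp1 was at 83.3, Phlda3 at 57.1, and Zmat3, Btg2 and Bbc3 at 22.6, 22.3 and 15.8 CPM per kilobase. Zmat3 and Btg2 lay closer together than their spread. The median is taken over every listed transcript of a gene, short ones included, and was 919 bases for Mdm2, 674 for Bax and 5742 for Zmat3. Levels per kilobase, and so the high group, depend on which transcripts are listed. These lengths also come from an annotation of another build than the GRCm39 named in the submitters' processing notes, so the order is approximate.

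**Figure D1:**
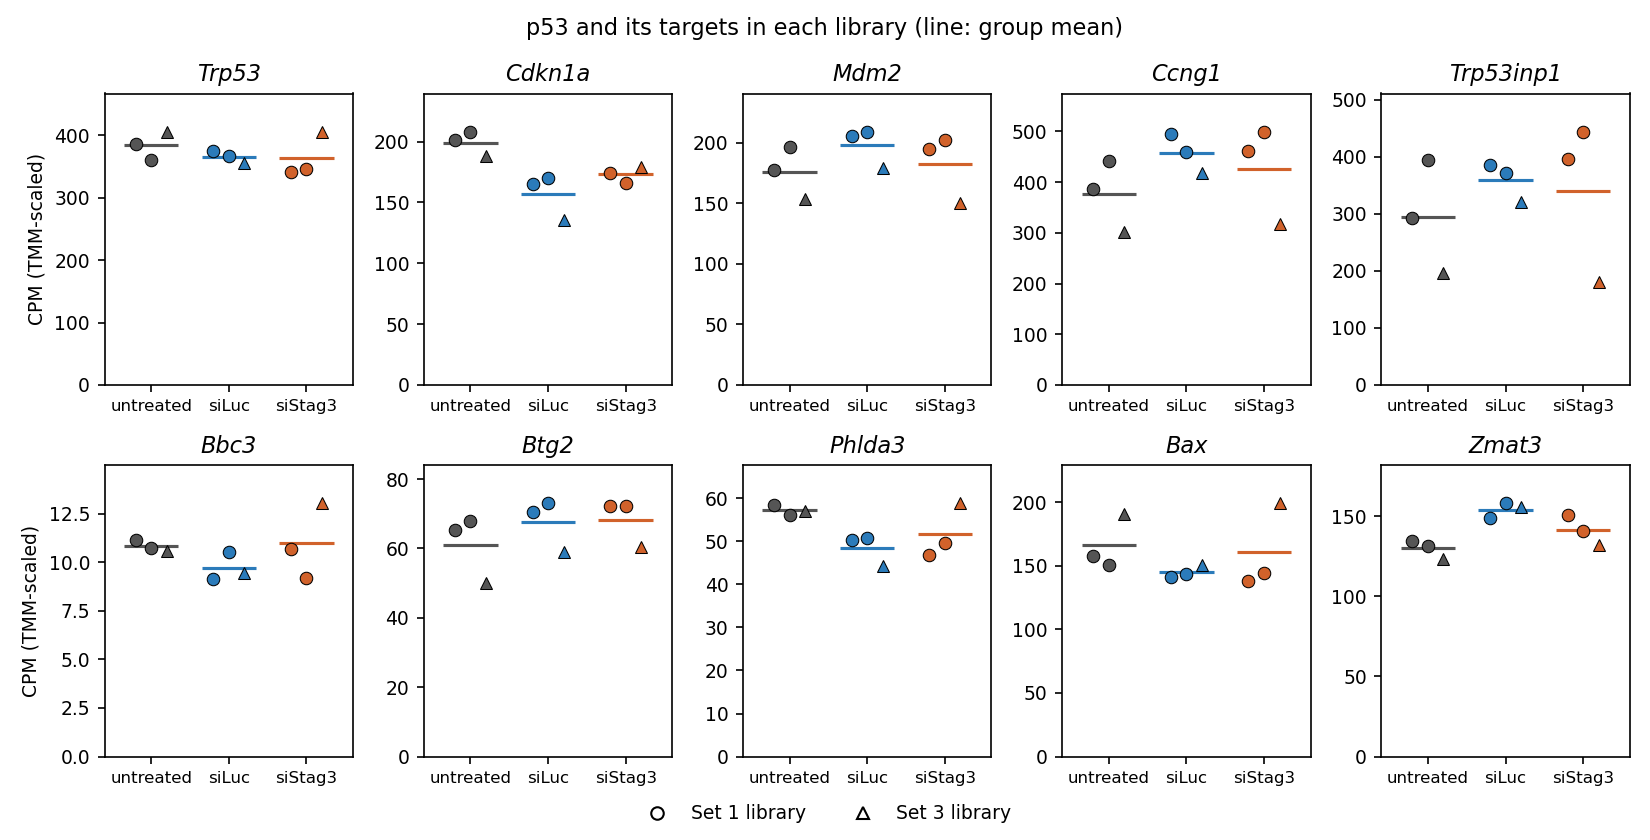
TMM-scaled CPM (y axis, from 0) of the 10 members in each library of the untreated, siLuc and siStag3 groups (x axis); circles are Set 1 libraries, triangles Set 3 libraries, and lines group means of 3. Cdkn1a, Phlda3 and Bbc3 were lower and Zmat3 higher in every siLuc library than in every untreated one, and for Trp53inp1 the Set 3 libraries of untreated and siStag3 cells, at 196 and 181 CPM, lie below all others.

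Control siRNA against untreated cells asks whether transfection alone moved the p53 targets. They did not move together. Of the 10 members, 2 passed the threshold of the edgeR quasi-likelihood test (adjusted p under 0.05 over 14246 genes), in opposite directions: Cdkn1a fell and Zmat3 rose. That is 2 of 10 beside 4.2% of all genes tested, 1.65% higher and 2.55% lower. By sign alone 5 members were higher and 5 lower, with a median log2 fold change of 0.04 over the members and -0.00242 over all genes. Before adjustment, 7 of the 10 and 3964 of the 14246 genes were under 0.05 in the same test. Mitochondrial genes took 5.98% to 6.73% of counts in siLuc, 3.48% to 5.33% in untreated and 4.10% to 6.78% in siStag3 libraries, so that siLuc and untreated did not overlap. The summed level of the 8 fibroblast markers did not overlap either, at 74.5 to 89.0 CPM in siLuc and 89.2 to 126 in untreated cells, with 71.9 to 124 in siStag3. Nearly all of that sum was Fbln1, and the part of either value in the members' differences was not tested.

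Cdkn1a (ENSMUSG00000023067) was at 201, 208 and 188 CPM in the untreated libraries, where the last value of each group here and below is the Set 3 library. It was at 165, 170 and 136 CPM in siLuc and at 174, 166 and 179 CPM in siStag3. Every siLuc value lay below every untreated value, and the Set 3 siLuc library was the lowest of all 9. The log2 fold change of siLuc against untreated was -0.35 (edgeR adjusted p 0.0197, SE 0.0702), a level of 0.786 times untreated with a 95% interval of 0.708 to 0.873. The difference was -0.29 within Set 1 and -0.47 within Set 3. The sign of the difference was opposite to an induction of this arrest gene.

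Zmat3 (ENSMUSG00000027663) was at 135, 132 and 124 CPM in untreated cells, 149, 158 and 156 CPM in siLuc and 151, 141 and 132 CPM in siStag3. The siLuc and untreated ranges did not overlap, and siStag3 lay across the gap between them. The log2 fold change was 0.25 (edgeR adjusted p 0.0343, SE 0.0585), or 1.19-fold, with within-set differences of 0.20 and 0.33. Both calls rest on the set term: without it the fold changes were -0.34 for Cdkn1a and 0.25 for Zmat3 with edgeR adjusted p of 0.579 and 0.58, and 0.00702% of all genes were called. Cdkn1a was not called when the untreated library of Set 1 experiment 3, the untreated Set 3 library, the siLuc library of Set 1 experiment 1 or the siLuc Set 3 library was left out (edgeR adjusted p 0.0507, 0.0966, 0.0667 and 0.103). Zmat3 kept its call in 2 of the 9 fits that left out 1 library, those without the siStag3 library of Set 1 experiment 3 and without the siStag3 Set 3 library (edgeR adjusted p 0.0398 and 0.00735), with a highest adjusted p of 0.154.

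The remaining targets did not pass. Among the genes of the p53 feedback, Mdm2 was at 178, 197 and 153 CPM in untreated cells, 205, 209 and 179 in siLuc and 194, 202 and 150 in siStag3. In each group the Set 3 library was the lowest, and the ranges overlapped. The log2 fold change of Mdm2 in siLuc was 0.17 (edgeR adjusted p 0.0969, SE 0.0602). Ccng1 stood at 0.30 (adjusted p 0.0589) and Phlda3 at -0.24 (adjusted p 0.0974) in the same test. Phlda3 ranged from 56.2 to 58.5 CPM in untreated cells and from 44.2 to 50.8 in siLuc, with no overlap.

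Of the death genes, Bbc3 was at 10.6 to 11.1 CPM in untreated cells and 9.14 to 10.5 in siLuc, and its log2 fold change was -0.15 (edgeR adjusted p 0.394, SE 0.114). Bax was at 157, 150.5 and 190 CPM in untreated cells, 141, 144 and 151 in siLuc and 138, 145 and 199 in siStag3. In untreated and siStag3 cells the Set 3 library stood well above the Set 1 libraries, while in siLuc all 3 lay within 141 to 151 CPM. The log2 fold change of Bax in siLuc was -0.18 (edgeR adjusted p 0.133, SE 0.0743). Trp53inp1 had 0.34 (SE 0.223, adjusted p 0.362) and the arrest gene Btg2 0.15 (SE 0.0577, adjusted p 0.119). Trp53 itself was at 386, 360 and 406 CPM in untreated cells and 374, 367 and 356 in siLuc, a difference of -0.07 on the log2 scale (edgeR adjusted p 0.503, SE 0.0638). It was at 342, 346 and 406 CPM in siStag3, and the ranges of all 3 groups overlapped.

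Non-overlapping ranges between siLuc and untreated cells were found for 4 of the 10 members (Cdkn1a, Bbc3 and Phlda3 lower, Zmat3 higher), beside 19.9% of all genes, 9.59% higher and 10.3% lower. Without the siStag3 Set 3 library, which is in neither of the groups compared, 6 members passed, 3 higher (Mdm2, Ccng1 and Zmat3) and 3 lower (Cdkn1a, Phlda3 and Bax), while 2458 genes passed in all beside 598 with all 9 libraries, so the directions stayed mixed. The highest upper bound of a 95% interval was 1.86-fold, for Trp53inp1, and 1.39-fold, for Ccng1, was the next.

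**Figure D2:**
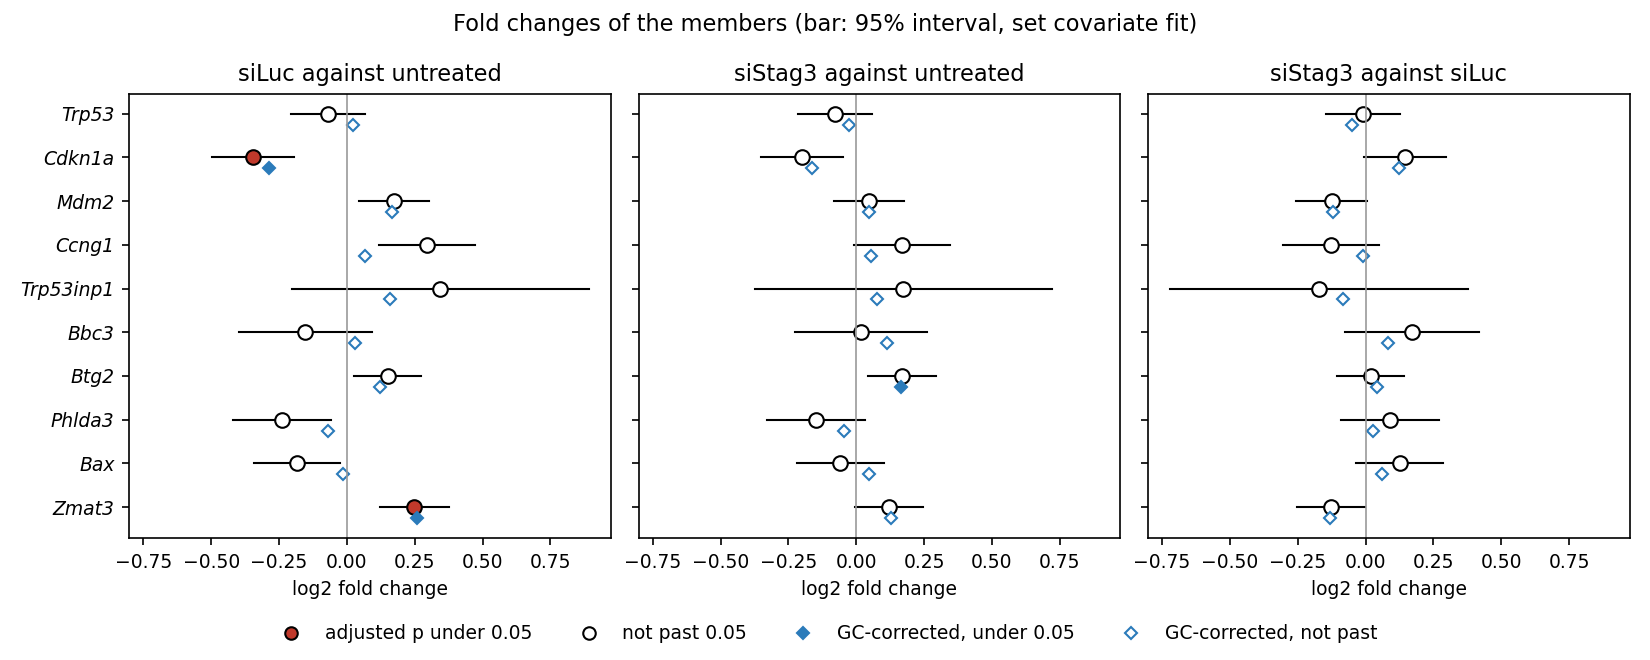
Log2 fold change (x axis) of each member in the 3 comparisons, from the edgeR fit with the set covariate; bars are 95% intervals and red circles have an adjusted p under 0.05. Blue diamonds give the fit with an added correction for GC content, filled where its adjusted p was under 0.05. In siLuc against untreated Cdkn1a at -0.35 and Zmat3 at 0.25 passed, and in siStag3 against siLuc no member did.

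Stag3 siRNA against control siRNA asks whether lowering of Stag3 itself, at the partial level given above, drew a damage type response. No member passed in this comparison (edgeR quasi-likelihood test, 0 of 10, beside 0.0281% of all genes, 0.014% in each direction), and 1 of the 10, Zmat3, had an unadjusted p under 0.05, as did 1122 of the 14246 genes. DESeq2's Wald test also called none of the 10. 5 members were higher and 5 lower, with a median log2 fold change of 0.00437 over the members and -0.00479 over all genes.

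Cdkn1a had a log2 fold change of 0.15 (95% interval -0.00499 to 0.30, edgeR adjusted p 0.641). This placed the fitted siStag3 level between siLuc and untreated cells, but the difference was 0.02 within Set 1 and 0.40 within Set 3. In Set 3 the siLuc and siStag3 libraries are of different experiments, so experiment and treatment cannot be told apart there. Mdm2 had -0.13 (interval -0.25 to 0.0042) and Trp53 -0.00974 (interval -0.15 to 0.13), with edgeR adjusted p of 0.641 and 0.974. The death genes Bbc3 and Bax had 0.17 and 0.13 (edgeR adjusted p 0.724 and 0.701), and Trp53inp1 -0.17 (0.857). Over the 10 members the upper bounds of the 95% intervals reached at most 1.33-fold, for Bbc3. These intervals assume the same difference in both sets. Within Set 3, with 1 library a group, Bbc3 (0.46), Phlda3 (0.41) and Bax (0.40) lay above their upper log2 bounds of 0.42, 0.27 and 0.29. Cdkn1a (0.40) and Trp53 (0.19) also lay above theirs in Set 3, of 0.30 and 0.13. There Ccng1 (-0.40) and Trp53inp1 (-0.82) lay below their lower bounds of -0.31 and -0.72. The bounds therefore do not exclude a larger difference in 1 set. The ranges of siStag3 and siLuc overlapped for all 10 members, beside 6.59% of all genes without overlap, 3.18% higher and 3.41% lower.

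Stag3 siRNA against untreated cells combines transfection and knockdown, and it shares the untreated libraries with the siLuc comparison. No member passed (edgeR, 0 of 10, beside 2.53% of all genes, 1.07% higher and 1.46% lower), and 2 had an unadjusted p under 0.05, as did 2417 of the 14246 genes. Cdkn1a had a log2 fold change of -0.20 (edgeR adjusted p 0.158, SE 0.0701), beside -0.35 in siLuc. It was the 1 member of 10 whose ranges did not overlap, beside 10% of all genes, 4.63% higher and 5.38% lower. Btg2 had 0.17 (edgeR adjusted p 0.149, SE 0.0577), Zmat3 0.12 (0.313) and Mdm2 0.05 (0.716). Without the siStag3 Set 3 library 3 members passed, of 1591 genes in all beside 361 with all 9 libraries: Cdkn1a at -0.29 and Phlda3 at -0.28 fell and Ccng1 at 0.26 rose (edgeR adjusted p 0.0116, 0.0203 and 0.0468). Upper bounds of the 95% intervals reached 1.65-fold, for Trp53inp1, and at most 1.27-fold for the other 9.

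With the group in the fit, 5 of the 10 members passed between Set 3 and Set 1, 1 higher and 4 lower, beside 42.7% of all genes (21.4% higher and 21.2% lower), so that share is near the background. Mdm2 (-0.30, SE 0.0528), Ccng1 (-0.41, SE 0.0726), Btg2 (-0.32, SE 0.0507) and Trp53inp1 (-0.74, SE 0.2) were lower in Set 3 by log2 fold change, and Bax was higher (0.30, SE 0.0637). Their edgeR adjusted p were 0.00067, 0.000703, 0.000321, 0.0293 and 0.00228. Cdkn1a (-0.11), Trp53 (0.10), Bbc3 (0.10), Phlda3 (0.03) and Zmat3 (-0.07) did not pass. The feedback gene Mdm2 and the death gene Bax thus passed in opposite directions. Trp53inp1 was called in 10 of 15 alternatives.

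Trp53inp1 showed the widest spread of the 10. It was at 293, 395 and 196 CPM in untreated cells, 385, 371 and 320 in siLuc and 397, 445 and 181 in siStag3. The Set 3 libraries of experiment 5 were the lowest, and the Set 3 siLuc library of experiment 1 lay above them and, of the 6 Set 1 libraries, above the untreated one at 293 CPM. Ccng1 followed a like order, at 387, 442 and 302 CPM in untreated cells, 495, 460 and 418 in siLuc and 462, 500 and 317 in siStag3. Btg2 was at 65.4, 67.8 and 50.1 CPM in untreated cells, 70.5, 73.0 and 59.0 in siLuc and 72.3, 72.2 and 60.6 in siStag3, so that each Set 3 library was the lowest of its group.

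Within Set 1 alone, the siStag3 and siLuc libraries were close for every member, with log2 differences from -0.11 (Trp53) to 0.15 (Trp53inp1). Within Set 3, with 1 library a group, they ran from -0.82 (Trp53inp1) to 0.46 (Bbc3). The sign was the same in both sets for 5 of the 10 members, beside 47.7% of all genes. The siLuc against untreated differences had the same sign in both sets for 10 of 10 members, beside 71.9% of all genes. For siStag3 against untreated it was 5 of 10, beside 55.2%. A test of whether each contrast differed between the sets (interaction term, edgeR, 3 residual degrees of freedom, with the lone Set 3 libraries assumed to vary like those of Set 1) called no member in any contrast. For siStag3 against siLuc the lowest adjusted p was 0.0601, for Phlda3, 7 of the 10 had an unadjusted p under 0.05, as did 3083 of the 14246 genes, and 1.12% of all genes passed. For siLuc and for siStag3 against untreated the lowest adjusted p was 0.627 and 0.53, with 2 members each at an unadjusted p under 0.05 (1128 and 1291 of all genes), and 0.014% and 0.00702% of all genes passed. DESeq2 size factors in the same interaction fit also called no member. Mitochondrial genes took 3.48% and 4.10% of counts in the untreated and siStag3 libraries of Set 3 and 5.98% in the siLuc library of Set 3, and the part of this difference in the member values was not tested.

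**Figure D3:**
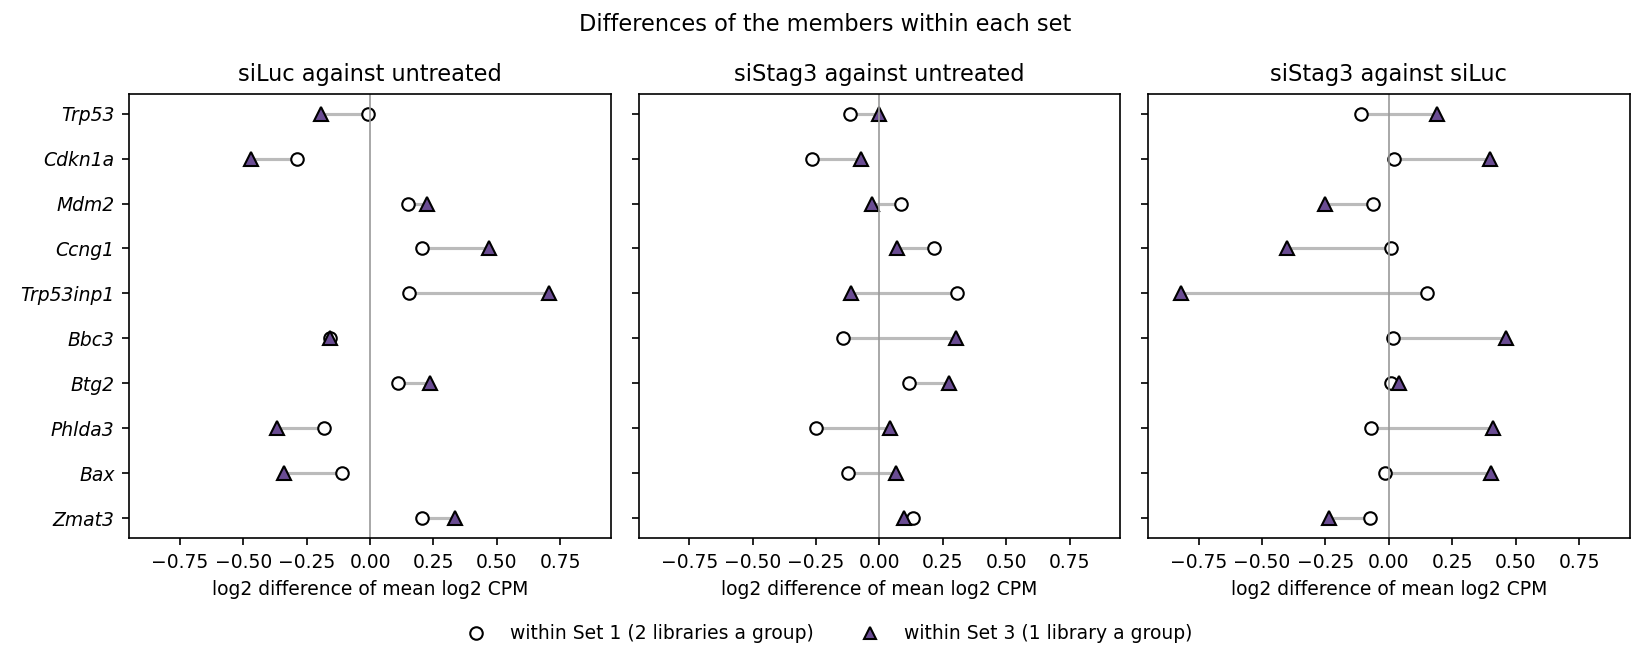
Difference of mean log2 CPM (x axis) for each member within Set 1 (circles, 2 libraries a group) and within Set 3 (triangles, 1 library a group), for the 3 comparisons. In siLuc against untreated the circle and triangle of each member lie on the same side of 0, while in siStag3 against siLuc the circles lie between -0.11 and 0.15 and the triangles between -0.82 and 0.46.

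The order of the members' differences went with the GC content of their transcripts. Ccng1 (37.4% GC) and Trp53inp1 (41.1%) are the AT-richest of the 10, and Bax (58.4%), Phlda3 (58.4%) and Bbc3 (68.6%) the GC-richest. Spearman's rho of log2 fold change with GC content over the 10 members was -0.77 for siLuc against untreated, -0.721 for siStag3 against untreated and 0.77 for siStag3 against siLuc. Over 14226 genes it was -0.474, -0.303 and 0.372. For Set 3 against Set 1 it was 0.915 over the members and 0.483 over all genes. These describe genes of the same libraries, which are not independent replicates.

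After a correction that removes the median deviation per GC bin from each library, Cdkn1a and Zmat3 still passed in siLuc against untreated, at -0.29 and 0.26 (edgeR adjusted p 0.00236 and 0.0042, beside 6.5% of all genes, 3.12% higher and 3.38% lower). Ccng1 went from 0.30 to 0.07, Bax from -0.18 to -0.0144 and Phlda3 from -0.24 to -0.07. Mdm2 stayed at 0.17 (edgeR adjusted p 0.0582). In siStag3 against untreated Btg2 then passed, at 0.16 (edgeR adjusted p 0.0495, beside 6.06% of all genes, 2.93% higher and 3.13% lower), while Cdkn1a had -0.16 (0.0722). In siStag3 against siLuc no member passed, beside 0.302% of all genes, 0.14% higher and 0.161% lower. Between the sets, Ccng1 went from -0.41 to -0.09 and Bax from 0.30 to 0.06, and neither passed after the correction (edgeR adjusted p 0.0886 and 0.298). Mdm2 (-0.28), Btg2 (-0.28) and Trp53inp1 (-0.51) remained lower in Set 3, and Cdkn1a (-0.18) and Phlda3 (-0.21) passed as lower (edgeR adjusted p 6.84e-05, 4.87e-05, 0.0233, 0.00458 and 0.00167, beside 40.1% of all genes, 19.8% higher and 20.3% lower).

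**Figure D4:**
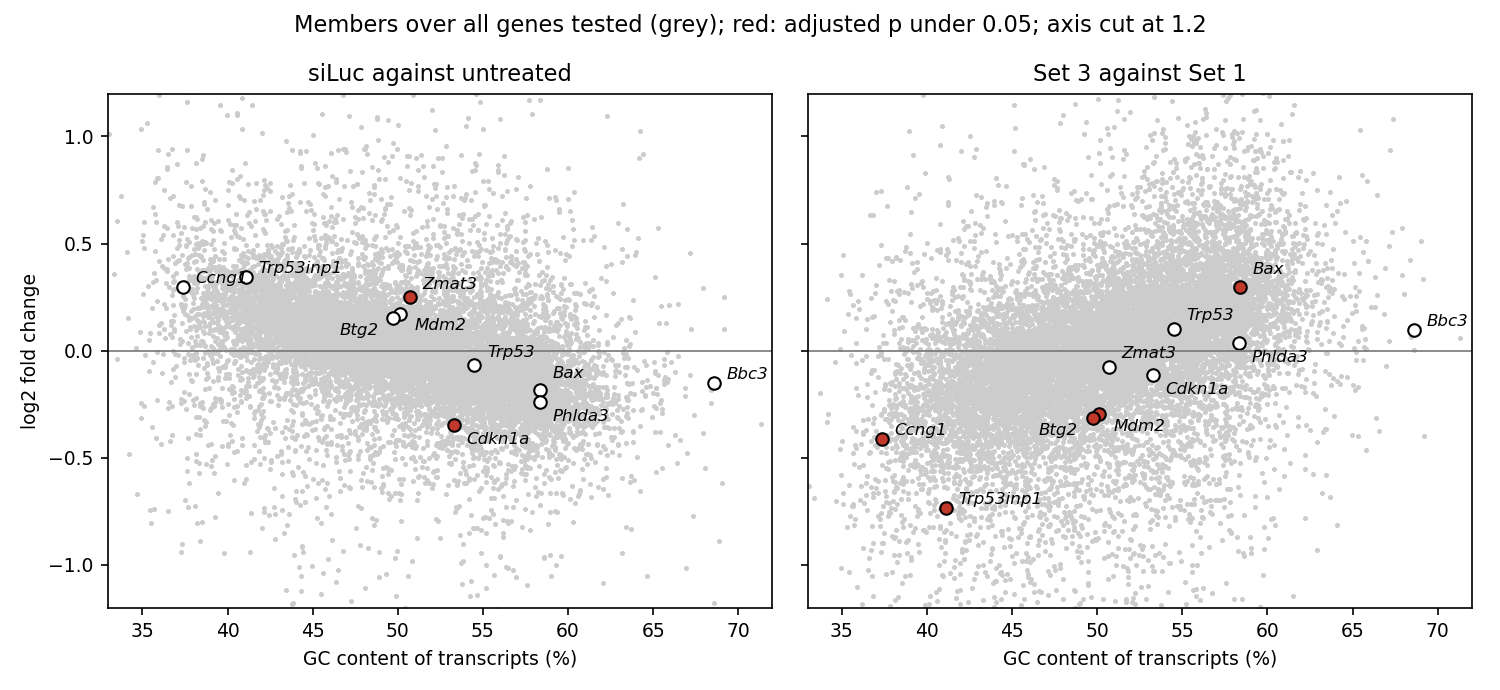
Log2 fold change (y axis, drawn from -1.2 to 1.2, so that genes beyond are not shown) against the mean GC content of each gene's transcripts (x axis, %) for siLuc against untreated and for Set 3 against Set 1; grey points are all genes tested and named points the members, red where the adjusted p was under 0.05. The AT-rich members Ccng1 and Trp53inp1 and the GC-rich Bax and Phlda3 lie on opposite sides of 0 in both panels, in reversed order.

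Other genes of the pathway were described from lists set beside the members. Of 34 other p53 targets, 33 were in the table and all 33 were tested. In siLuc against untreated 1 rose (edgeR, 1 of 33 beside 4.2% of all genes) and none fell. That gene was Eda2r, which encodes a member of the TNF receptor superfamily, with a log2 fold change of 0.33 (SE 0.0849, adjusted p 0.0485). The median over the 33 was -0.00602. In siStag3 against untreated 1 of 33 fell, beside 2.53% of all genes, and none rose. That gene was Sesn1, which encodes a stress-induced inhibitor of mTORC1 signalling, at -0.26 (edgeR adjusted p 0.0487, SE 0.0633). In siLuc Sesn1 was at -0.23 (edgeR adjusted p 0.0577). In siStag3 against siLuc 0 of 33 passed, beside 0.0281% of all genes. Before adjustment 4 of the 33 were below 0.05, beside 7.88% of all genes. The calls in this list shifted with the correction for GC content. In siLuc against untreated 4 of 33 then passed, beside 6.5% of all genes: Ddit4 (0.39), Eda2r (0.20) and Sesn2 (0.14) rose and Sesn1 (-0.28) fell, with edgeR adjusted p of 0.00200, 0.0270, 0.0489 and 0.00427. In siStag3 against untreated 3 of 33 passed, beside 6.06% of all genes: Ddit4 (0.33) and Dglucy (0.30) rose and Sesn1 (-0.28) fell, with edgeR adjusted p of 0.00622, 0.00657 and 0.00433. In siStag3 against siLuc 1 passed, Dglucy at 0.36 (edgeR adjusted p 0.0167), beside 0.302% of all genes. Ddit4, Sesn2 and Dglucy were named after their values were seen.

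Upstream of p53, 0 of 23 genes of DNA damage signalling (Atm, Atr, Chek1, Chek2, H2ax, Brca1 and others, with Mre11 under its older symbol Mre11a) passed in any of the 3 comparisons in the edgeR test. Of all genes 4.2%, 2.53% and 0.0281% passed in siLuc against untreated, siStag3 against untreated and siStag3 against siLuc. In the same order, 9, 2 and 3 of the 23 had an unadjusted p under 0.05, beside 27.8%, 17.0% and 7.88% of all genes. The medians of the 23 were 0.10, 0.02 and -0.04. By sign 19 of the 23 were higher in siLuc than in untreated cells (82.6%, beside 49.6% of all genes), and 14 of 23 after the GC correction. In siStag3 against untreated 16 of 23 were higher (69.6%, beside 48.6% of all genes), and 13 after the correction. In siStag3 against siLuc 4 of 23 were higher (17.4%, beside 48.3% of all genes), and 12 after the correction. Between Set 3 and Set 1, 14 of the 23 fell and 1 rose, beside 21.2% and 21.4% of all genes. After the same correction 1 of 23 passed in siLuc against untreated, beside 6.5% of all genes. This was the checkpoint kinase gene Wee1, at 0.20 (edgeR adjusted p 0.0148). Of 16 regulators and relatives of p53, 15 were tested and none passed (edgeR). In the same order of comparisons, 2, 0 and 0 of the 15 had an unadjusted p under 0.05, beside 27.8%, 17.0% and 7.88% of all genes.

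Downstream, p21 acts through the DREAM complex to lower cell cycle genes. Of 16 such genes 1 fell in siLuc against untreated (edgeR, beside 2.55% of all genes lower) and none rose. At an unadjusted p under 0.05 there were 6 of the 16, beside 27.8% of all genes. Of these, Ccnb1 (0.24), Ccna2 (0.23), Bub1 (0.22) and Top2a (0.19) were higher, and Cenpa (-0.115) and E2f1 were lower. E2f1 aside, they were named after their values were seen. The gene that passed was E2f1, which encodes an S phase transcription factor, at -0.26 (edgeR adjusted p 0.0341, SE 0.0607). With the GC correction it was at -0.11 (adjusted p 0.169). After that correction Ccnb1 was at 0.12, Ccna2 at 0.14, Bub1 at -0.00774, Top2a at 0.0334 and Cenpa at -0.0539. None of the 16 then passed, beside 6.5% of all genes. Without the correction, the median of the 16 in siLuc against untreated was -0.00356. None passed in siStag3 against untreated or against siLuc (edgeR, beside 2.53% and 0.0281% of all genes). At an unadjusted p under 0.05 there were 5 of the 16 against untreated and 0 against siLuc, beside 17.0% and 7.88% of all genes. Among 10 apoptosis genes picked as lying outside the classical p53 targets, Bad, a BH3-only death gene, fell in siLuc against untreated. It was at -0.43 there (edgeR adjusted p 0.0443, SE 0.109), beside 2.55% of all genes lower. With the GC correction it was at -0.26 and did not pass (edgeR adjusted p 0.102). In siStag3 against untreated Bad had -0.20 (adjusted p 0.372). It did not pass between siStag3 and siLuc (adjusted p 0.641). None of these calls of Eda2r, Sesn1, E2f1 and Bad held in edgeR with no set term, whose adjusted p for them ran from 0.58 to 0.913. Over 20 alternatives Eda2r was called in 9, Sesn1 in 7 and E2f1 and Bad in 8 each.

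**Figure D5:**
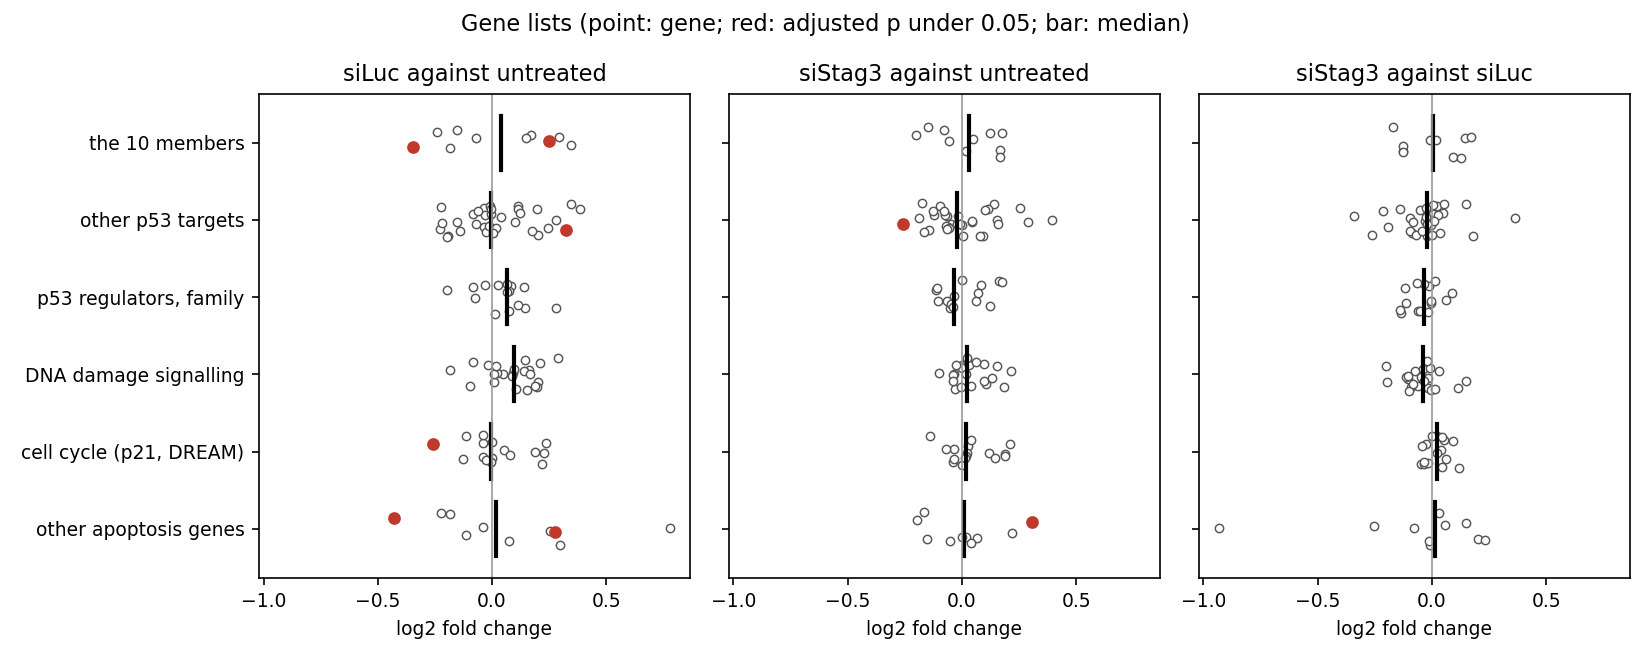
Log2 fold change (x axis) of each tested gene in the 10 members and 5 other lists (rows) for the 3 comparisons, from the edgeR fit with the set covariate; red points have an adjusted p under 0.05 and black bars are list medians. The medians of the members lie at 0.04, 0.03 and 0.00437, red points of the members lie on both sides of 0 in siLuc against untreated, and siStag3 against siLuc has no red point.

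As a summary of the 9 targets, the mean z score of their log2 CPM, after the mean of each set was subtracted, was -0.273, 0.129 and -0.378 in the untreated libraries, -0.0604, 0.234 and 0.0883 in siLuc and -0.0372, 0.00713 and 0.290 in siStag3. The ranges of all 3 groups overlapped. After the same subtraction, though, several targets ran against each other over the libraries. Pearson r was -0.91 for Cdkn1a and Ccng1, -0.90 for Cdkn1a and Zmat3, and -0.90 for Trp53inp1 and Bax. Other pairs went together, such as Phlda3 and Bax (0.96) and Ccng1 and Trp53inp1 (0.93). Opposed targets partly cancel in the mean, so its overlap between groups does not describe the single targets. The 3 genes that followed this mean most closely over the 9 libraries, among 9050 candidates, were Egln1 (Pearson r 0.90), Mrpl44 (0.87) and Hexim1 (0.867). All points share the libraries and their scaling, so this is a description. Part of the reads may be shared with related loci: 10.16% of the 31-base words of Trp53 transcripts also occur in other genes, most in the pseudogene Trp53-ps, and 11.1% of those of Bax, most in Gm45808, which is in the table as a row of its own. For Cdkn1a the share was 9.78%, most in an annotated transcript on the opposite strand, and whether counting used strand is not given in the sources used here.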

How the data were processed

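RNA was measured by mRNA sequencing (KAPA mRNA HyperPrep, per the labels' protocols) in 9 libraries. The authors deposited whole-number counts per gene. FastQC, Salmon, DESeq2 and GRCm39 are named in the submitters' processing notes, with no roles, so the counts may be rounded estimates. Annotation, filter and strand setting are not given in the sources used here. Columns were assigned to groups by name, and they carry no replicate numbers.

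All 9 libraries entered 1 fit in edgeR 4.0.16 (R 4.3.3) with a mean per group, the set as covariate, TMM factors, filterByExpr and a robust quasi-likelihood F test. P-values are two-sided and Benjamini-Hochberg adjusted over 14246 genes, with a threshold of 0.05. The SE is the absolute log2 fold change over the square root of F. 95% intervals are not adjusted. GC content and length came from GENCODE M21 transcripts, which hold 16604 of the IDs, in 20 GC bins. A count of 3, the floor, equals 0.0674 to 0.102 CPM and covers counting error only. Members, lists, the set term and the alternatives were chosen with earlier results of these data known. Members are always named, and of other lists at most the 4 largest rises and falls past the threshold. The tests were tried on simulated data with a set effect but no shift tied to GC content or experiment number. That trial therefore does not cover such shifts. The main results use all 9 libraries. The values of 1 gene of the apoptosis list are not reported here.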

Additional observations from a re-analysis of the deposited data

How the results depend on the processing

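The alternatives were chosen with earlier results known, and the GC correction without the set, and for the sets, and the replicate block below were added after the data were seen. For the changes listed, the cause was not tested. Each value is from edgeR with the set unless named.

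The column names carry no replicate number from the labels, only a set and an experiment. A fit with set and experiment as a replicate block (3 residual degrees of freedom, the siLuc Set 3 library alone in its block) called 0 members in the 3 comparisons of treatments. It called 86 genes in siLuc against untreated, 352 in siStag3 against untreated and 2 in siStag3 against siLuc. In the first of these Cdkn1a was then at -0.26 and Zmat3 at 0.20 (adjusted p 0.168 and 0.242). It changed the direction of Trp53 in siLuc against untreated (0.00948) and of Trp53inp1 (0.0811) and Phlda3 (-0.0192) in siStag3 against siLuc. Within Set 1, differences between experiments 3 and 1 over 14246 genes had correlations of -0.0254, -0.0439 and -0.0371 between pairs of groups. In Set 1, libraries of the same experiment thus did not deviate together. These correlations do not cover Set 3, where the untreated and siStag3 libraries share an experiment and the siLuc library is of another.

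For siLuc against untreated the count of members past the threshold was 2, 0 without the set, 1 with total count only, 1 in Set 1 alone, 4 with only the 6 libraries compared, 0 with the GC correction and no set, and 0 to 6 in the 9 fits that left out 1 library. The count of all genes was 598, 1 without the set, 1296 with DESeq2's Wald test, 926 with the GC correction, 7 with it and no set, 298 in Set 1 alone, 1801 with only the 6 libraries compared, and 111 to 2458 when 1 library was left out. The share of these genes that were higher was 39.3%, and 21.2% when scaled by total count, which moved the all-gene median to -0.0531.

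For siStag3 against untreated 0 members passed, 1 with the GC correction, 2 in Set 1 alone (Cdkn1a and Phlda3, both lower), and 0 to 3 when 1 library was left out. Of all genes 361 passed, 2 without the set, 864 with the GC correction, 16 with it and no set, 949 in Set 1 alone, and 78 to 1591 when 1 library was left out. The share higher was 42.4%, and 28.1% with total count only. For siStag3 against siLuc no alternative called a member. Of all genes 4 passed, 0 without the set (where 307 were below 0.05 unadjusted), 22 with DESeq2's Wald test, 43 with the GC correction, 0 with it and no set, 1 with only the 6 libraries compared, and 0 to 4 when 1 library was left out. Between the sets 4 to 6 members passed when 1 library was left out, beside 4162 to 6355 of all genes. With all 9 libraries 6076 genes passed. The share of passing genes that were higher in Set 3 was 50.2%, and 61.7% with total count only.

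Cdkn1a and Zmat3 kept their directions in siLuc against untreated in all 20 alternatives and passed in 13 and 8 of them. Direction changed only for values that did not pass, save Phlda3 between the sets. With the GC correction these were Trp53 (0.0217) and Bbc3 (0.0310) in siLuc against untreated (0.0223 and 0.0274 without the set), Bax (0.0469, and 0.0469 without the set) in siStag3 against untreated, Sesn1 (0.00236, and 0.000141 without the set) in siStag3 against siLuc, and Trp53 (-0.0265), Bbc3 (-0.16) and Phlda3 (-0.21) between the sets. In Set 1 alone they were Bbc3 in siStag3 against untreated (-0.13) and Ccng1 (0.00915), Trp53inp1 (0.15), Phlda3 (-0.0713) and Bax (-0.0143) in siStag3 against siLuc. Total count only gave Bbc3 -0.0267 in siStag3 against untreated. Leaving out 1 library gave ranges of -0.10 to 0.0136 for Trp53 in siLuc against untreated, -0.13 to 0.13 for Bbc3 and -0.16 to 0.00211 for Bax in siStag3 against untreated, -0.0886 to 0.0308 for Trp53, -0.29 to 0.0892 for Trp53inp1, -0.0106 to 0.0349 for Btg2 and -0.0371 to 0.16 for Phlda3 in siStag3 against siLuc, and -0.0526 to 0.18 for Bbc3 and -0.0925 to 0.15 for Phlda3 between the sets. The small number of libraries limits precision.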
